A study of Homo sapiens with 5 samples.

Results

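Transcripts of the aryl hydrocarbon receptor (AHR) pathway were followed in BT474 cells, an established luminal breast cancer line with HER2 amplification, before and after survival of the HER2 and EGFR kinase inhibitor lapatinib. The 8 genes were chosen by symbol and are the only entries of the table with these names, 8 of its 18512 gene symbols. Of these, 4 belong to the receptor machinery (AHR, ARNT, ARNT2, AHRR) and 4 are genes that the receptor switches on (CYP1A1, CYP1A2, CYP1B1, TIPARP). Persister cells (3 libraries) were those alive after 9 days in 2 µM lapatinib, given to cultures at 75% confluence and renewed every 3 days. Parental cells (2 libraries) were grown alongside without the drug, and both groups had 0.01% DMSO. Polyadenylated RNA from the same number of cells per library was sequenced. The replicates are described as biological ones, and all come from this 1 cell line. The comparison addressed how the transcripts of surviving cells differ from those of the untreated line.

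The table gives 1 FPKM value per gene and group, a level that the authors scaled for transcript length and sequencing depth. The values below are therefore the authors' group values, without SD or n, and the spread between libraries and the depth of each library are unknown. A gene is called here when the q-value of the authors' own comparison was under 0.05. The 8 genes were chosen with these FPKM values in view, so their differences are a description. Luminal markers were present, with 7 of 8 at 1 FPKM or more in both groups, while ERBB2 was listed at 0 in both and could not serve as a check of the line. Among markers of other cell types, those above 1 FPKM were COL1A1 of 6 fibroblast genes, CD68 and LYZ of 6 immune genes, and none of 4 endothelial or 4 basal genes. The summed fibroblast markers were 13.5 FPKM in parental cells and 8.74 FPKM in persister cells, the immune markers 7.06 and 6.05 FPKM, the endothelial markers 1.10 and 0.136 FPKM and the basal markers 0.717 and 0.540 FPKM. DCN was listed at 0 in parental cells, and COL1A2 and CD3E in persister cells. The part of these markers in the results was not tested. In bulk RNA, a change in the share of cells that express a gene and a change in RNA per cell cannot be told apart.

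AHR is a transcription factor that waits in the cytoplasm, bound to the chaperone HSP90 and its partners, until a small molecule such as a dioxin, a polycyclic aromatic hydrocarbon or a tryptophan derivative binds it. It then enters the nucleus, pairs with ARNT and binds DNA at response elements with the core GCGTG. Its best known targets are the CYP1 enzymes, which hydroxylate aromatic hydrocarbons and estrogens, and 2 brakes on the receptor itself, the repressor AHRR and the ADP-ribosyltransferase TIPARP. In breast epithelium the pathway is known for its crosstalk with the estrogen receptor and for the formation of catechol estrogens.

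The starts of CYP1A1, CYP1A2 and TIPARP, the 3 target genes called higher in persister cells, are shown first because the receptor core can be looked for there. Each sequence is the 250 bases before the RefSeq transcript start (build GRCh38.p14), 5′ to 3′ on the strand of the gene, and capitals mark GCGTG or, on the opposite strand, CACGC. They are reference sequence, not sequence of these cells. The first is CYP1A1 at chr15:74725529-74725778 on the minus strand, the next CYP1A2 at chr15:74748595-74748844 on the plus strand, and the last the outermost of 3 starts of TIPARP at chr3:156674340-156674589 on the plus strand.
CYP1A1: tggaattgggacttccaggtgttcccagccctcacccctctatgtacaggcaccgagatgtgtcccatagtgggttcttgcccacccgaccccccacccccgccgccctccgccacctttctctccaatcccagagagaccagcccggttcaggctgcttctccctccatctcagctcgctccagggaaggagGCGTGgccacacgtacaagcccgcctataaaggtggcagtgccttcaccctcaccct
CYP1A2: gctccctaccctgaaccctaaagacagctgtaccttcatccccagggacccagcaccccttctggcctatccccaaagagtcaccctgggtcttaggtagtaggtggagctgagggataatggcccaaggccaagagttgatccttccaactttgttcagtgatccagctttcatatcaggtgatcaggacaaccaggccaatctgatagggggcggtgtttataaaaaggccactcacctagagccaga
TIPARP: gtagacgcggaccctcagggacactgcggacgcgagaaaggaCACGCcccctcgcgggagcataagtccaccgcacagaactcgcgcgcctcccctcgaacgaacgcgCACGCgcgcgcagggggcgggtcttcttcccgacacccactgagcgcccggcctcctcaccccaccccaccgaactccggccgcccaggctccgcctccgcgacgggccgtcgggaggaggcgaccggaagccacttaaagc

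CYP1A1 held 1 core motif, which began 57 bases before the start, CYP1A2 held 0 and the outermost start of TIPARP 2, which began 208 and 142 bases before it. The windows of the other 2 TIPARP starts held 0. The 2 starts of AHRR held 1 and 2, while the single starts of AHR and ARNT held 0. These windows come from 9 starts of 6 of the 8 genes, all but ARNT2 and CYP1B1. Of all 35116 promoters in the RefSeq table, 32.2% held the motif at least once in the same 250 bases and 10.2% at least 2 times. A match is a description of the letters in this window, and the best studied response elements of CYP1A1 lie further upstream than the sequence shown.

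In the cells themselves, 3 of the 4 targets were called higher in persister cells while the receptor gene was not called. CYP1A1 went from 1.01 FPKM in parental to 46.7 FPKM in persister cells, a 46.1-fold higher value, while AHR stood at 8.80 and 8.75 FPKM. TIPARP and CYP1A2 were also higher, whereas CYP1B1, the CYP1 gene with the highest level in parental cells, was not called. By the q-values of the authors' deposited table, 4 of the 8 genes were called higher, where 30.9% of the 13617 genes covered by the test were, and 1 was called lower, where 39.0% were. At a q-value under 0.01 the counts were again 4 and 1, where 26.9% and 35.2% of tested genes were called. With genes under 1 FPKM in both groups left out, CYP1A2 dropped out and the counts were 3 higher and 1 lower, where 28.8% and 44.2% of tested genes were called. All 8 were covered by the test. Since the genes were chosen on this contrast, nothing is read from these counts.

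**Figure D1:**
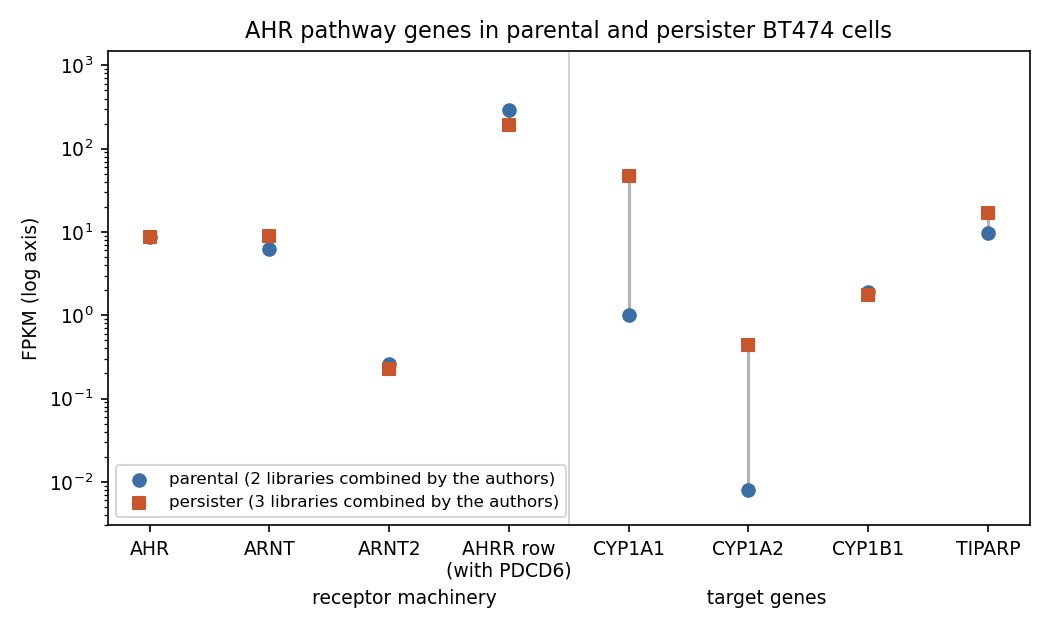
FPKM of each of the 8 genes (log axis) in parental cells (blue circles) and persister cells (orange squares), each a single value that the authors made from 2 and 3 libraries, so that no error bar can be drawn. AHR, ARNT2 and CYP1B1 have nearly overlapping symbols, while CYP1A1 runs from 1.01 to 46.7 FPKM and CYP1A2 from 0.00803 to 0.438 FPKM.

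Of the receptor machinery, the receptor gene AHR was listed at 8.80 FPKM in parental cells and 8.75 FPKM in persister cells, with a q-value of 0.932 in the authors' deposited table. The level of AHR lay above that of 67.0% of all genes in parental and 68.1% in persister cells, so its place among genes also moved little. A GENCODE transcript on the same strand, AC019117.2, overlaps its exons, and 41.2% of the 50-base windows of the AHR transcript also occur in transcripts of other genes. Which of them the reads came from cannot be told from the deposited value.

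ARNT, the partner that AHR needs to bind DNA and that also serves the hypoxia factors, rose from 6.16 to 8.95 FPKM (1.45-fold, authors' deposited table, q = 3.46e-08). The level of ARNT relative to AHR on the FPKM scale, which is per length, was thus 70.0% in parental and 102% in persister cells. ARNT stood below AHR in the first group and level with it in the second.

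ARNT2, a close relative of ARNT used mainly in neurons, was listed at 0.258 and 0.225 FPKM and was not called (authors' deposited table, q = 0.302). Its level was 4.19% of that of ARNT in parental and 2.51% in persister cells. The coding sequences of ARNT and ARNT2 were 71.1% identical over the aligned bases, and their longest identical stretch was 17 bases.

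AHRR, the repressor that competes with AHR for ARNT, cannot be read from this table. Its entry was listed at 290 FPKM in parental cells and 193 FPKM in persister cells and was called lower (authors' deposited table, q = 5.18e-13). These are the highest values among the 8 genes in both groups, above 99.1% of all genes. The entry joins 7 RefSeq transcripts, of which 2 belong to AHRR and 5 to its neighbour PDCD6, a calcium-binding protein gene on the same strand of chromosome 5. PDCD6 has no row of its own, so its reads are counted under the name AHRR. The level and the fall thus belong to the AHRR and PDCD6 locus as a whole, and how much came from each gene cannot be told apart. Left to its other 3 genes, the receptor machinery held 1 gene called higher (ARNT), 0 called lower and 2 not called.

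Among the targets, CYP1A1 had the largest difference of all 13617 tested genes on the log2(FPKM + 1) scale, at 4.57. By plain ratio it ranked 25th and CYP1A2 23rd, since a pseudocount of 1 understates the change of genes with low values. CYP1A1 had a level above that of 42.7% of all genes in parental cells and of 94.1% in persister cells. Its level was 0.115 times that of AHR in parental cells and 5.34 times that of AHR in persister cells. The q-value of CYP1A1 was listed as 0 in the authors' deposited table.

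CYP1A2, the hepatic member that lies beside CYP1A1 in the opposite orientation on chromosome 15, was listed at 0.00803 FPKM in parental cells and 0.438 FPKM in persister cells. It was called higher (authors' deposited table, q = 6.66e-13), with a ratio of 54.6 that rests on a parental value close to 0 and has no known counting error. On the log2(FPKM + 1) scale the difference of CYP1A2 was only 0.51. CYP1A2 kept nearly the same proportion to CYP1A1, 0.792% of its FPKM in parental cells and 0.938% in persister cells.

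CYP1A1 and CYP1A2 were 80.5% identical over their aligned coding bases, with a longest identical stretch of 40 bases. None of the 2636 windows of 50 bases in the CYP1A1 transcript occurred in a transcript of another gene, CYP1A2 included. Of the 2679 windows in the CYP1A2 transcript, 17 (0.635%) also occurred in transcripts of other genes, TMEM59 among them. The sources used here do not give the read length. Whether shorter reads of CYP1A1 were counted under CYP1A2 was not tested.

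CYP1B1, the member best known for the 4-hydroxylation of estradiol and expressed outside the liver, was listed at 1.88 FPKM in parental cells and 1.74 FPKM in persister cells. It was not called (authors' deposited table, q = 0.388). An antisense transcript, CYP1B1-AS1, overlaps 12.8% of its exon bases, and because the libraries did not keep strand, reads from that stretch cannot be assigned. In parental cells CYP1B1 was the leading CYP1 transcript, with 64.8% of their summed FPKM of 2.90, against 34.9% for CYP1A1. In persister cells the sum was 48.9 FPKM, of which CYP1A1 made up 95.5% and CYP1B1 3.56%. The ratio of CYP1A1 to CYP1B1 went from 0.538 to 26.8.

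**Figure D2:**
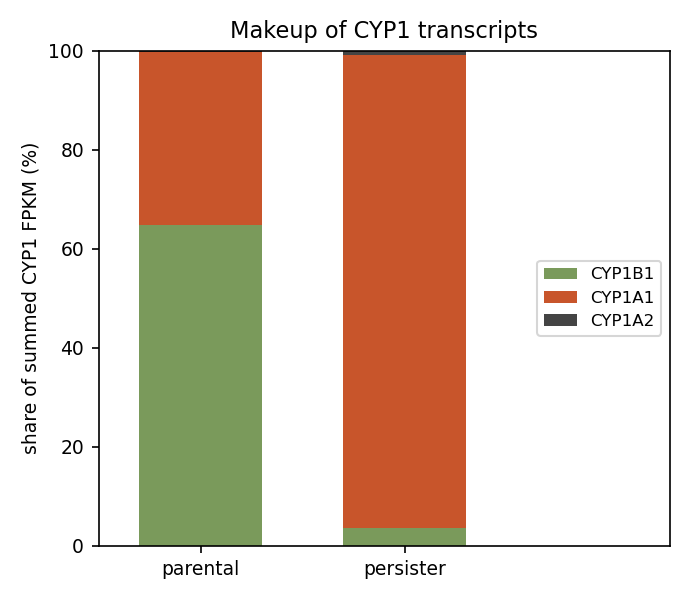
Share of each gene (%) in the summed FPKM of CYP1A1, CYP1A2 and CYP1B1, with 1 bar for parental and 1 for persister cells. CYP1B1 fills 64.8% of the parental bar and 3.56% of the persister bar, and CYP1A2 stays under 1% in both.

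TIPARP, an enzyme that modifies AHR and dampens its activity, rose from 9.84 to 16.9 FPKM (1.72-fold, authors' deposited table, q = 1.69e-14). Among the targets it had the highest level in parental cells, but CYP1A1 passed it in persister cells, at 2.76 times its FPKM against 0.103 times before. TIPARP stood at 1.12 times the level of AHR in parental and 1.94 times in persister cells. No exon of the longest transcript of TIPARP, CYP1A1, CYP1A2 or ARNT overlaps an exon of another gene in GENCODE.

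With the AHRR entry set aside, the order of levels in parental cells ran TIPARP, AHR, ARNT, CYP1B1, CYP1A1, ARNT2 and CYP1A2, from 9.84 down to 0.00803 FPKM. In persister cells it ran CYP1A1, TIPARP, ARNT, AHR, CYP1B1, CYP1A2 and ARNT2, from 46.7 down to 0.225 FPKM. Whether neighbours in either order differ by more than the spread between libraries cannot be said from single group values. The median difference was -0.02 for the 4 receptor genes, with the AHRR entry included, and 0.62 for the targets. Over all tested genes it was -0.04, and without the AHRR entry the receptor median was -0.0083. The receptor median over all 4 genes took the opposite sign after centring on the all-gene median. That all-gene median was -0.12 over the 10160 tested genes with at least 1 FPKM in both groups. AHR, ARNT2 and CYP1B1, none of them called, likewise have differences close to 0 whose sign depends on scaling.

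**Figure D3:**
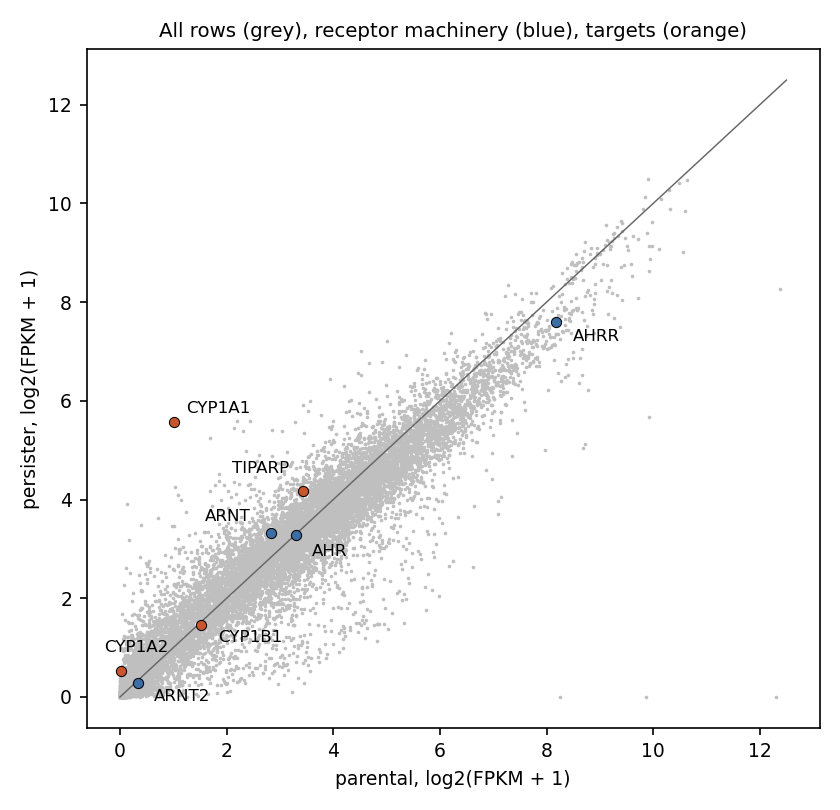
Level of every row of the table (grey), the receptor machinery (blue) and the target genes (orange) in parental (x axis) and persister cells (y axis), both as log2(FPKM + 1), with the line of equal values. CYP1A1 lies apart from the cloud, AHR and CYP1B1 lie on the line, and the AHRR point includes PDCD6.

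The genes with values most like those of CYP1A1, by Euclidean distance over the log2(FPKM + 1) values of the 2 groups, were VIM (distance 0.761), CALCOCO1 (1.13) and NPY1R (1.18). VIM encodes vimentin and was listed at 2.24 and 37.1 FPKM, CALCOCO1 at 3.38 and 42.6 FPKM, and the neuropeptide receptor gene NPY1R at 3.55 and 47.2 FPKM. CYP1A1 thus started lower than its nearest neighbours in parental cells and ended within their range. For AHR the nearest genes were DIS3, MAP1S and GPN2, at distances of 0.0138 to 0.0196, and for CYP1B1 they were FUT1, LMLN and PRR22, at 0.00651 to 0.0165. Likeness here spans 2 group values and says nothing of shared control.

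The wider pathway was described with 7 further lists of 85 genes, of which 66 were covered by the authors' test. Of these, 18 (27.3%) were called higher and 30 (45.5%) lower by the q-values of the authors' deposited table, beside 30.9% and 39.0% of all tested genes. Transcripts for the proteins that hold AHR in the cytoplasm went the opposite way to CYP1A1. All 5 chaperone complex genes were called lower, with a median difference of -0.53, and 4 of the 5 kept that sign when each group was scaled to its summed FPKM, where the median shrank to -0.24. HSP90AA1 and HSP90AB1, which encode the HSP90 chaperone itself, were at 317 and 436 FPKM in parental cells and fell to 167 and 301 FPKM. The co-chaperone p23, encoded by PTGES3, fell from 199 to 119 FPKM, and the kinase gene SRC from 2.48 to 1.60 FPKM. HSP90AA1, HSP90AB1 and PTGES3 have processed copies in the genome that could share their reads.

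Of 13 tested coactivators and corepressors of AHR, 6 were called higher and 1 lower, beside 30.9% and 39.0% of all tested genes. Their median difference of 0.07 became 0.43 when each group was scaled to its summed FPKM. The histone acetyltransferase CREBBP rose from 6.55 to 12.1 FPKM, the coactivator NCOA2 from 7.27 to 12.1 FPKM and the estrogen receptor ESR1 from 12.4 to 18.2 FPKM. The chromatin remodeller SMARCA4 fell from 68.3 to 44.2 FPKM.

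Other factors of the same bHLH-PAS family, several of which also pair with ARNT, moved both ways. Of 9 tested, 5 were called higher and 2 lower, beside 30.9% and 39.0% of all tested genes. Their median difference of 0.25 became 0.65 when each group was scaled to its summed FPKM. HIF1A, the hypoxia factor that shares ARNT, fell from 71.9 to 31.1 FPKM, and the circadian factor CLOCK from 6.57 to 3.94 FPKM. Its relative NPAS2 rose from 0.742 to 2.59 FPKM and NPAS1 from 0.515 to 1.50 FPKM.

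Of 12 other tested genes known to respond to AHR, 4 were called higher and 3 lower, beside 30.9% and 39.0% of all tested genes, with a median difference of 0.06. That median became 0.18 after centring on the all-gene median and 0.41 when each group was scaled to its summed FPKM. The secreted glycoprotein STC2 rose from 9.73 to 19.2 FPKM and CYP2S1, another P450 induced through AHR, from 9.15 to 13.4 FPKM. NQO1, a quinone reductase under both AHR and NRF2, fell from 96.7 to 55.7 FPKM, and the Notch target HES1 from 45.7 to 16.7 FPKM. ALDH3A1, a classical member of the AHR battery named after its values were seen, was listed at 0.00198 and 0.00416 FPKM and was too low to be tested.

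Enzymes of the kynurenine pathway turn tryptophan into products that include ligands of AHR. Of those tested, all but AFMID act on kynurenine or further down the path, so calls could hardly fall elsewhere. Of 7 tested, 0 were called higher and 5 lower, beside 30.9% and 39.0% of all tested genes. Their median difference of -0.32 shrank to -0.16 when each group was scaled to its summed FPKM. KMO, which hydroxylates kynurenine, fell from 9.33 to 1.37 FPKM (authors' deposited table, q = 6.42e-04), and KYNU, which cleaves it, from 1.76 to 1.20 FPKM. The aminotransferase AADAT fell from 0.991 to 0.511 FPKM and QPRT, at the end of the path to NAD, from 52.8 to 28.7 FPKM. The enzymes of the first step, IDO1, IDO2 and TDO2, named after their values were seen, stood below 0.05 FPKM in both groups and were not tested. AFMID, which completes the formation of kynurenine and was also named after its values were seen, was listed at 4.63 and 5.48 FPKM and was not called. HAAO, further down the path and named in the same way, was listed at 0.273 and 0.341 FPKM and was not called. The fifth call, KYAT3, shares its entry with RBMXL1 and changed sign when each group was scaled to its summed FPKM.

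Genes that equip a P450 with electrons and haem were mostly called lower. Of 11 tested, 7 were called lower and 2 higher, beside 39.0% and 30.9% of all tested genes. The median difference of -0.22 became 0.11 when each group was scaled to its summed FPKM. With this scaling 2 of the 9 called genes changed sign. ALAS1, the first enzyme of haem synthesis, fell from 23.6 to 12.02 FPKM and the electron carrier CYB5A from 49.2 to 30.0 FPKM. PPOX, the penultimate enzyme of the path, rose from 6.95 to 14.0 FPKM.

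The CYP1 enzymes hydroxylate estrogens. Of 9 tested genes for forming or conjugating these hormones, 7 were called lower and 1 higher, beside 39.0% and 30.9% of all tested genes. The median difference of -0.57 was -0.46 after centring on the all-gene median and -0.39 when each group was scaled to its summed FPKM. HSD17B2, which inactivates estradiol, fell from 6.27 to 1.07 FPKM, HSD17B7, which forms it and has a close pseudogene, from 10.04 to 5.90 FPKM, and the steroid sulfatase STS from 4.68 to 2.57 FPKM. The sulfotransferase SULT1A1, which has near-identical copies, was listed at 24.3 and 16.0 FPKM and was called lower. CYP19A1, or aromatase, named after its values were seen, was listed at 0.000813 FPKM in parental cells and at 0 in persister cells.

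**Figure D4:**
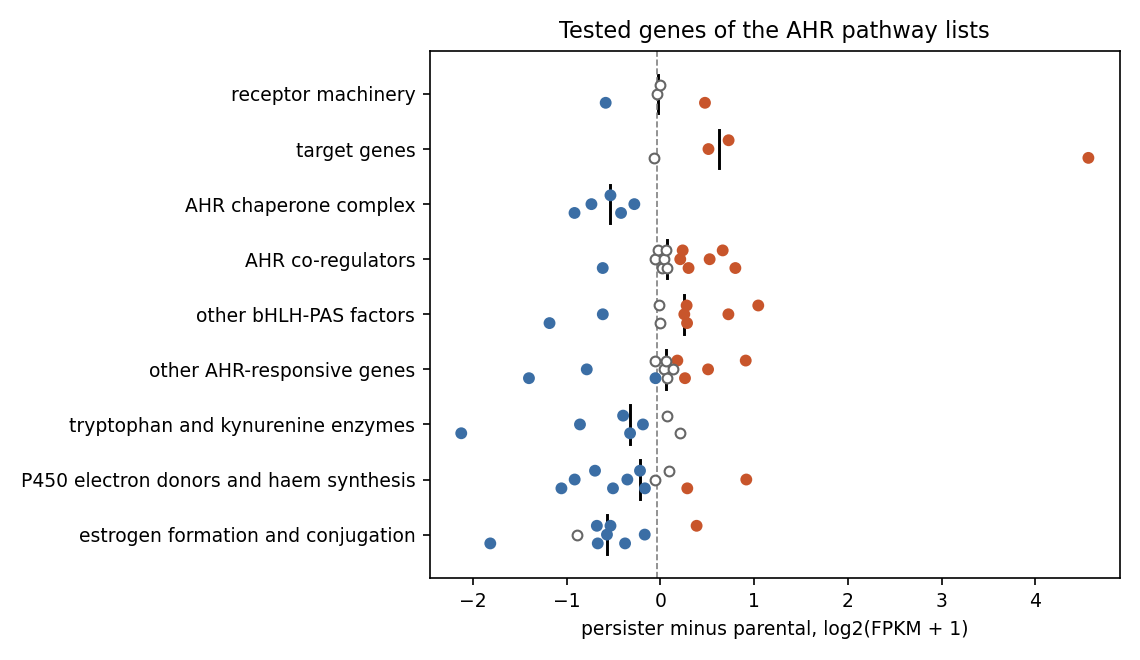
Difference between persister and parental cells on the log2(FPKM + 1) scale for each tested gene of the 9 lists, with filled orange points for genes called higher, filled blue for genes called lower, open points for genes not called, a black bar for the list median and a dashed line for the median of all tested genes (-0.04). CYP1A1, at 4.57, stands alone at the right, and every point of the chaperone list lies left of the dashed line.

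With a difference of at least 1 on the log2(FPKM + 1) scale required as well, 1 of the 8 genes (CYP1A1) was called higher, beside 2.98% of all tested genes, and 0 lower, beside 6.01%. There was no group exposed briefly and none released from the drug, so direct effects of lapatinib, growth arrest and traits of the surviving cells cannot be told apart.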

How the data were processed

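Tools named in the submitters' processing notes are Cuffdiff 2.0.2 and Cufflinks, TopHat2 2.0.6 and CASAVA 1.8, on the build hg18, without settings. The libraries did not keep strand, per the labels' protocols. The deposited table has 18803 rows with 1 FPKM value for each group, per the file headers. The authors deposited a q-value for their test of the 2 groups, and how it was adjusted is not stated. Their fold change is given for ARNT and TIPARP. Otherwise it was used only to find the 145 rows set to 1 despite differing FPKM (beyond a tolerance of 0.6%), taken as having no estimate. No test was computed here: a gene was called at a q-value under 0.05, among genes with a q-value below 1.

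Differences are log2(FPKM + 1), persister minus parental. Where a symbol stood on several rows (269 symbols), the row with the highest mean was used, and 26 spreadsheet dates were replaced by symbols through transcript identifiers. Transcripts were matched to genes with RefSeq (GRCh38.p14) and GENCODE 29 in 18702 rows, and 2 listed genes, UGT1A6 and IL4I1, stand on rows of UGT1A1 and NUP62 and were not analysed here. Coding sequences were aligned with Biopython 1.88. Only promoter coordinates are given, and their build is not that of the authors. Counting, motif and window functions were tested on simulated data.

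The genes and lists were chosen with earlier results of these data known. Named genes were the 8 members, up to 4 called genes with the largest difference in each further list, and the 3 nearest to CYP1A1, CYP1B1 and AHR. Others were named after their values were seen, and a gene that meets the rule is not reported here by name. The alternatives were other pseudocounts, scalings, call rules and filters.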

Additional observations from a re-analysis of the deposited data

How the results depend on the processing

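No paired analysis was possible because the table holds 1 value per group, and for the same reason no replicate could be left out. CYP1A1, CYP1A2, TIPARP and ARNT stayed higher and the AHRR entry lower under all pseudocounts (1, 0.1 and 0.01) and scalings tried. A pseudocount cannot change the sign of a difference. Centring on the all-gene median and scaling to summed FPKM both raise persister values relative to parental ones. Of these genes, only the AHRR entry could therefore have changed sign. Its difference was -0.47 after centring and -0.23 with each group scaled to its summed FPKM. The members called were the same in number at a q-value under 0.01, and leaving out genes under 1 FPKM in both groups took those called higher from 4 to 3. With a difference of at least 1 required, they fell from 4 to 1 higher and from 1 to 0 lower, and the genes of the 7 further lists from 18 to 1 higher and from 30 to 5 lower. Leaving out rows that hold transcripts of more than 1 gene, an alternative added after seeing the data, removed the AHRR entry, so 0 members were lower and the receptor median was -0.0083.

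The target median was 1.55 with a pseudocount of 0.1, 2.71 with 0.01, 0.74 after centring on the all-gene median and 1.25 with each group scaled to its summed FPKM. The receptor median was -0.074 with a pseudocount of 0.1 and -0.10 with 0.01, and it reversed to 0.092 after centring and 0.20 with each group scaled to its summed FPKM. In the same 2 scalings the difference of AHR reversed to 0.11 and 0.34, that of ARNT2 to 0.077 and 0.072 and that of CYP1B1 to 0.043 and 0.21. The median for electron donors and haem synthesis reversed to 0.11 with the latter scaling. The parental total that this scaling divides by, 333324 FPKM, exceeded the persister total of 260213 FPKM. Dividing by these totals therefore raises persister values relative to parental ones. Why the totals differ was not tested. Depth is unknown, so the precision of the lowest values, such as CYP1A2 in parental cells, cannot be given.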

Other observations

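Joined entries like that of AHRR and PDCD6 were found in 269 rows, or 1.44% of the rows with a matched transcript. NEDD9, an AHR-responsive adhesion docking protein gene, was listed at 4.99 and 14.6 FPKM without an estimate in the authors' deposited table, as were SP1 at 14.5 and 16.7 FPKM and KYAT1 at 1.06 and 1.72 FPKM.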
